A study of Mus musculus with 8 samples.

Results

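Chemokines are small secreted proteins that draw leukocytes along gradients, and their receptors are G protein-coupled receptors carried mostly by those leukocytes. CXC ligands that begin with an ELR motif act on Cxcr2 and draw neutrophils, interferon-induced CXC ligands act on Cxcr3 and draw T cells, and the CC ligands act on the Ccr receptors of monocytes, eosinophils and lymphocytes. Fibroblasts are known as a source of several of these ligands in inflamed lung, while alveolar macrophages, lymphocytes and airway epithelium supply others. The genes described here are those whose name on the array is that of a ligand of the Ccl, Cxcl, Cx3cl or Xcl families, of Pf4 or Ppbp, or of a Ccr, Cxcr, Cx3cr or Xcr receptor. This rule took 72 of 55653 probes, for 55 of 23620 named genes, of which 37 encode ligands and 18 receptors. Values of expression played no part in the rule.

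The RNA came from lungs of adult female C57BL/6 mice aged 12 to 16 weeks, and the labels name no treatment or altered allele. Fibroblasts of the A-type, the B-type and the C-type were sorted from a suspension of lung cells, and the pulmonary single cells (Pu) were that suspension. The sort used antibodies to Pdgfra, Sca-1 and Thy-1, together with antibodies to E-cadherin, TER119, Lyve-1, CD146, CD45 and CD31 against other lineages; the labels do not say how these surface proteins were combined to gate each type. Each of the 4 groups had 2 independently prepared samples of 50000 cells, whose 10 ng of RNA was amplified and hybridised to a 1-colour Agilent array; whether the 2 samples shared mice is not stated, so the spread between them may be partly technical.

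All 8 fibroblast markers checked (Pdgfra, Col1a1, Col1a2, Col3a1, Dcn, Lum, Pdgfrb and Fbln1) were higher in the fibroblast types than in Pu, and their summed signal lay between 634 and 1266 times the array's 75th percentile on the 6 fibroblast arrays, against 62.1 and 83.8 on the Pu arrays. Most markers of other cells were lower in the fibroblast types (16.3% of all genes tested were): 10 of 12 myeloid, 4 of 4 alveolar macrophage, 9 of 10 T and NK cell, 5 of 5 B cell, 7 of 7 blood endothelial, 5 of 6 alveolar type 2 and 5 of 5 airway genes. Of 5 pericyte genes, 2 (Pdgfrb and Kcnj8) were higher and 2 (Rgs5 and Notch3) lower. Pdgfrb is also among the 8 fibroblast markers, and Rgs5 was above background on no fibroblast array. The summed pericyte signal, which includes Pdgfrb, was 12.3 to 21.6 on fibroblast arrays against 4.25 and 7.37 in Pu. The summed alveolar macrophage signal was 0.457 to 0.906 on fibroblast arrays and 250 to 383 on Pu arrays. The 2 replicates of a group correlated at 0.985 for A, 0.985 for B, 0.947 for C and 0.915 for Pu across genes. The 6 fibroblast arrays shared 1 slide and 1 scan and the 2 Pu arrays another, so an effect of either and the contrast of fibroblasts with Pu cannot be told apart. Within the fibroblasts the slide and scan were the same. In such bulk samples fewer cells of a type and less RNA per cell cannot be told apart either.

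The probes behind the differences between the fibroblast types are 60 bases long. Every value below for these genes rests on the whole probe, of which the first 30 bases are given here (mm9, Ccl8 chr11:81930108-81930167, Ccl11 chr11:81876072-81876131, Cxcl14 chr13:56390078-56390137, Ccr10 chr11:101034312-101034371).
Ccl8: accagaagtctcaaattctgcagccttgaa
Ccl11: taggagtaactgaggataatagcagcttat
Cxcl14: cctcattagaggccgcactgtatggctgtg
Ccr10: ttggatcccttctaaagtcctgctgtgcaa

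Values are log2 signals minus the array's 75th percentile, so that 0 is the signal of the 75th percentile probe and 1 unit is a factor of 2. A gene entered the test through its brightest probe among those well above background on both replicates of any group. This left 46 of the 55 genes, 31 ligands and 15 receptors; Ccl1, Ccl12, Ccl20, Ccl26, Ccl28, Cxcl3, Ccr4, Cxcr1 and Xcr1 did not pass. Of the 46, 18 passed through all 4 groups, 18 through Pu alone and 10 through Pu and 1 or 2 fibroblast types. On single arrays 24, 23, 21, 22, 20 and 18 ligand genes were above background in A1, A2, B1, B2, C1 and C2, against 32 and 32 in Pu, and 7, 6, 5, 7, 4 and 3 receptor genes, against 15 and 15 in Pu. On no fibroblast array were more than 7 of the 15 tested receptors above background. Detection over all spots other than controls was also lower on the fibroblast arrays. It was 66.4%, 60.6%, 60.7%, 63.4%, 60.6% and 54.6% on A1, A2, B1, B2, C1 and C2, against 68.7% on both Pu arrays.

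**Figure D1:**
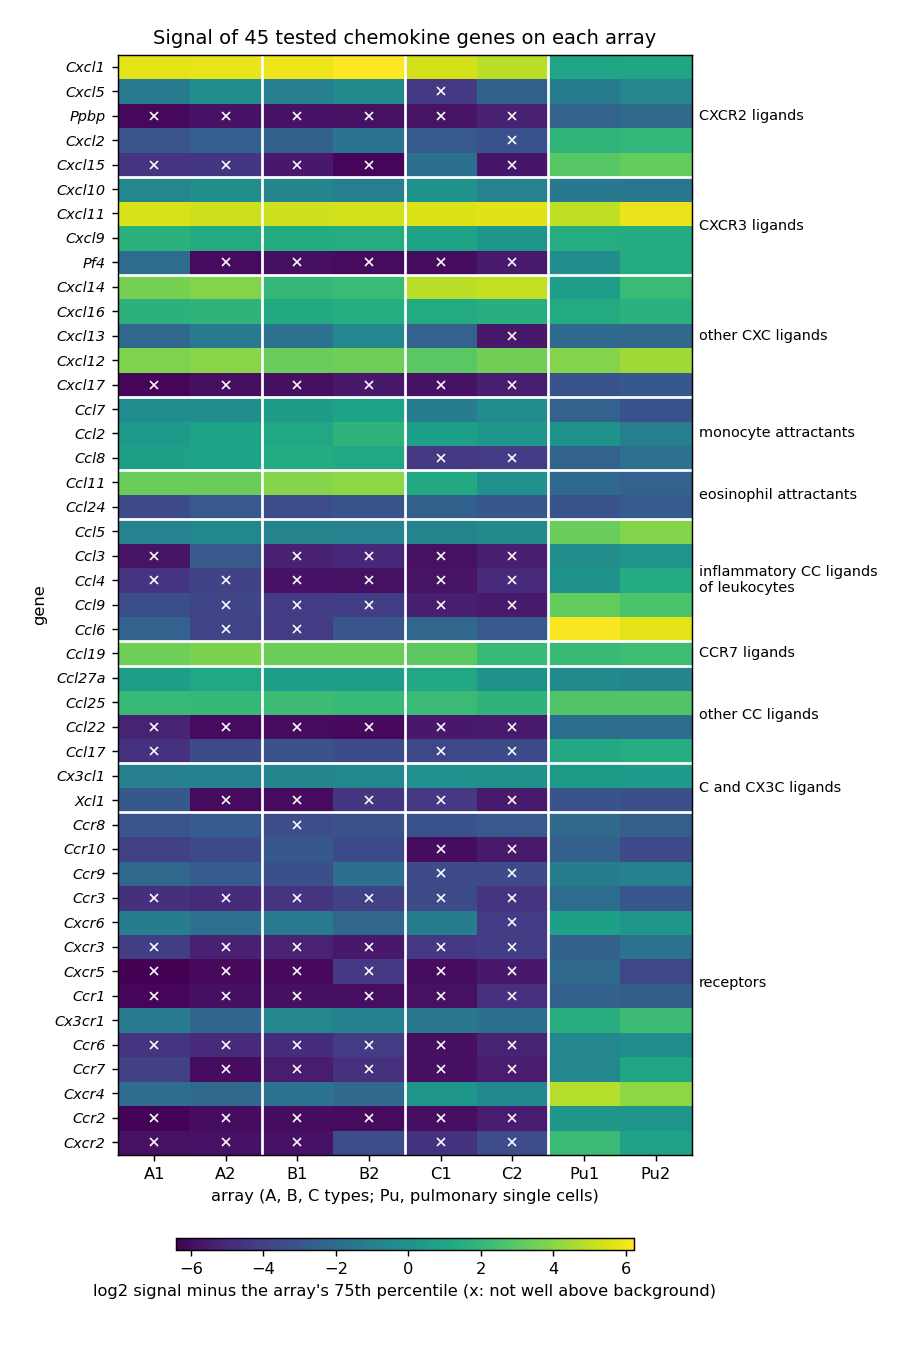
Signal of 45 tested genes (rows, grouped by role) on each array (columns, fibroblast types A, B and C, then Pu), as log2 signal minus the array's 75th percentile; a cross marks a probe not well above background. Of the 14 receptors drawn, 8 are above background on at most 1 fibroblast array, and Cxcl1, Ccl11 and Ccl7 are brighter on every fibroblast array than on either Pu array.

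The first comparison asked which chemokine genes the fibroblasts, as the mean of the 3 types, carried at another level than the whole suspension. Of the 46 genes, 8 were higher in the fibroblast types (17.4%), where 20.8% of all 17264 genes tested were, and 29 were lower (63.0%), where 16.3% of all genes were; 9 did not pass the test. The higher share is near that of all genes. Of the 29 lower genes, 17 had passed the filter through Pu alone, which fixes their direction, and 12 had not. Among the 18 genes above background in all 4 groups, 7 were higher, 5 were lower and 6 did not pass. The median difference was -2.16 over the 46 genes (-1.14 with the 21 genes that have only a bound placed at it) and 0.10 over all genes tested. Scaling each array to its median shifted the median difference of all genes by 0.36 and gave 9 higher and 24 lower member genes; scaling to the 75th percentile of probes above background on all arrays shifted it by -0.31 and gave 5 higher and 30 lower. No called member changed sign under those or under quantile normalization, normexp background correction or the authors' value table. The share of higher genes among all called was 56.0% here, 71.8% and 39.4% under those 2 scalings.

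**Figure D2:**
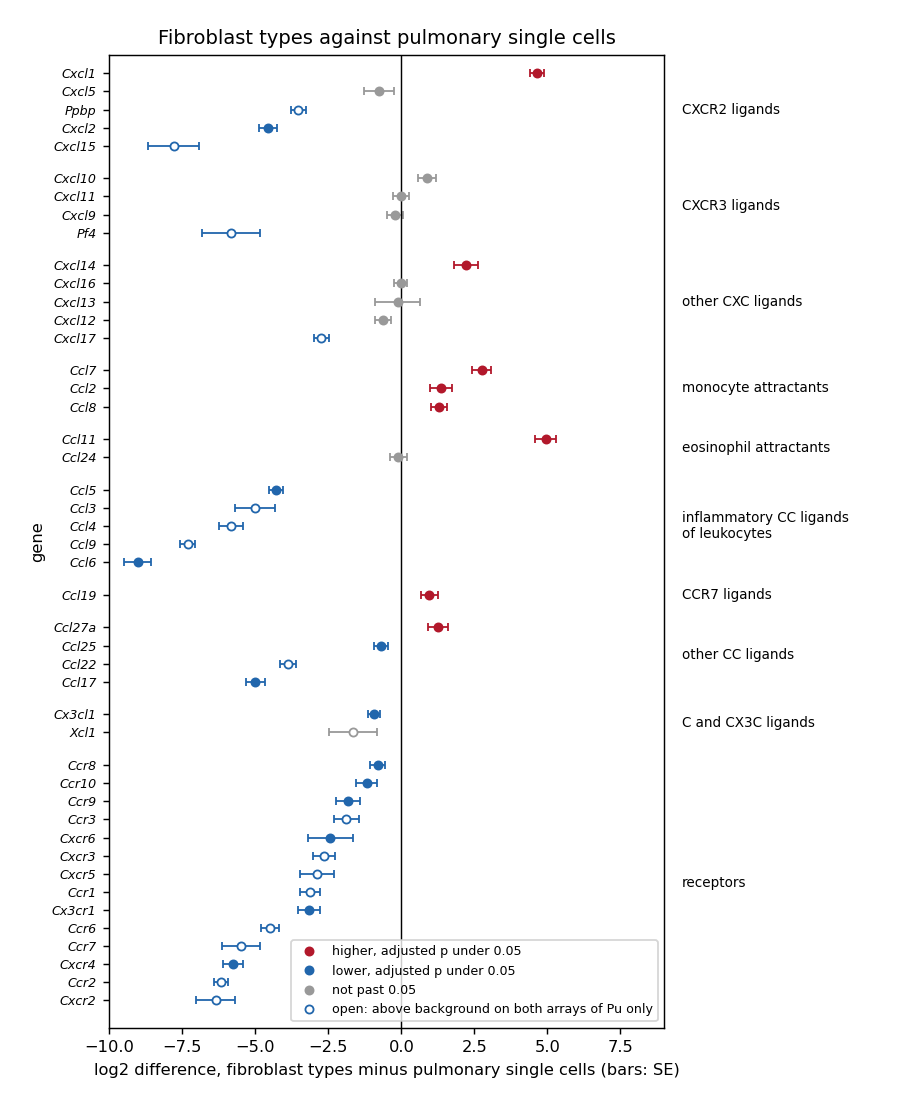
Log2 difference of the mean of the 3 fibroblast types minus Pu for 45 tested genes, grouped by role, with bars of 1 SE (limma); open symbols mark genes above background on both arrays of Pu alone. Ccl11 (4.95) and Cxcl1 (4.66) lie farthest right, and the 14 receptors drawn lie left of 0.

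Cxcl1, an ELR ligand of Cxcr2 that draws neutrophils, was higher in every fibroblast type than in Pu. Its signal was 5.72 and 5.83 in A, 5.94 and 6.24 in B and 5.41 and 4.92 in C, against 0.98 and 1.06 in Pu. All 6 fibroblast arrays lay above both Pu arrays, a difference of 4.66 (SE 0.24, adjusted p = 3.5e-05, 25.2-fold). Cxcl2, another ELR ligand of Cxcr2, ran the other way. It stood at -3.10 and -2.66 in A, -2.52 and -1.58 in B and -2.81 and -3.25 in C, against 1.88 and 1.94 in Pu, with C2 not above background. It was lower on every fibroblast array, by a difference of -4.57 (SE 0.32, adjusted p = 8.7e-05).

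Of the 6 ligands of Cxcr2, 1 rose, 3 fell, 1 did not pass the test and 1 was not tested, beside 20.8% higher and 16.3% lower of all genes; Cxcl15 and Ppbp, among the 3, had passed the filter through Pu alone, which fixes their direction. Cxcl15, an ELR ligand named lungkine that airway epithelium makes in mice, stood at -4.48 and -4.35 in A, -5.55 and -6.24 in B and -1.80 and -5.64 in C, against 2.97 and 3.26 in Pu. Among fibroblast arrays it was above background on C1 alone, and it was at least 101-fold lower in the fibroblast types (difference -7.79, SE 0.87, adjusted p = 0.00065; -8.43 without C1 and -7.15 without C2). "At least" marks a gene for which a whole fibroblast type was not above background, with each such value raised to the lowest detected signal of its array. C1 was also the fibroblast array on which the surfactant gene Sftpc was highest, at 3.14 against 7.77 and 7.82 in Pu, and its part in the C1 value was not tested. Ppbp, a platelet ligand of Cxcr2, was above background on no fibroblast array and at least 3.13-fold lower (adjusted p = 0.000101). Cxcl5, made by alveolar epithelium and platelets, had a difference of -0.76 (SE 0.52, adjusted p = 0.289).

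Cxcl1 and Cxcl2 are neighbours, with probe starts 12689 bases apart on chr5 (mm9). Because they moved in opposite directions, the 250 bases before each start are shown (RefSeq, GRCm38.p6, plus strand; chr5:90890995-90891244 for Cxcl1 and chr5:90903649-90903898 for Cxcl2), with a motif of the NF-kB type in capitals (GGGA, any 3 bases, then TCC, searched on both strands). Each promoter held 2 matches, which overlap.
Cxcl1: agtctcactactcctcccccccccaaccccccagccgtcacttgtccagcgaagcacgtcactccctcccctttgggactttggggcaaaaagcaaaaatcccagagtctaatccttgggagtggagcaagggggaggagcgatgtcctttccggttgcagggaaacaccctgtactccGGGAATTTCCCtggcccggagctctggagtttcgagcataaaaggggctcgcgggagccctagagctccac
Cxcl2: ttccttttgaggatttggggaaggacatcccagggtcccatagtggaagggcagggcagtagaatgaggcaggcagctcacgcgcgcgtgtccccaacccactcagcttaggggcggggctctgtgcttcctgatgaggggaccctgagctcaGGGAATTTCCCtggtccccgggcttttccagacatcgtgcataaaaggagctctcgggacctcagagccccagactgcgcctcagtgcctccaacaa

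The motif stood in the 250 bases of 8 of the 44 member promoters in the RefSeq table (Ccl1, Ccl22, Ccr1, Ccr3, Cxcl1, Cxcl10, Cxcl2 and Cxcl3), where 4.59% of 32851 promoters held it. Of those 8 genes, Ccl1 and Cxcl3 were not tested and the used probe of Cxcl10 did not pass. Cxcl1 was higher in the fibroblasts, and Ccl22, Ccr1, Ccr3 and Cxcl2 were lower. Ccl22, Ccr1 and Ccr3 had passed the filter through Pu alone, which fixes their direction.

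The 3 monocyte attractants tested were all higher in the mean of the fibroblast types (20.8% of all genes were higher). Ccl7, which acts on Ccr2, stood at -0.28 and -0.15 in A, 0.53 and 0.91 in B and -1.05 and -0.34 in C, against -2.43 and -3.21 in Pu, a difference of 2.75 (SE 0.32, adjusted p = 0.000768). Every fibroblast array lay above both Pu arrays. Ccl2, the main ligand of Ccr2, stood at 0.38 and 0.90 in A, 1.12 and 1.83 in B and 0.75 and 0.25 in C, against 0.04 and -1.01 in Pu. Its difference was 1.36 (SE 0.38, adjusted p = 0.0286); it was 0.83 without Pu2 (adjusted p = 0.136), and the call was also lost without A2, B2 or C1. The groups did not overlap, with C2 the fibroblast array nearest to Pu1. Ccl8, an attractant of monocytes that in mice also acts on Ccr8, had a mean difference of 1.29 (SE 0.27, adjusted p = 0.00971), which joined a higher level in A and B to a lower one in C and is described with the comparisons between types. Ccl12 did not pass the filter, with Pu2 its only array above background.

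Ccl11, called eotaxin because it draws eosinophils through Ccr3, had the largest difference of all members tested in this comparison that rose. It stood at 3.35 and 3.40 in A, 3.93 and 4.06 in B and 1.28 and -0.02 in C, against -2.11 and -2.45 in Pu. The difference was 4.95 (SE 0.36, adjusted p = 9.58e-05, 30.8-fold), and no fibroblast array came near the Pu arrays. Ccl24, another ligand of Ccr3, was within -3.53 to -2.49 on the fibroblast arrays and at -3.20 and -2.72 in Pu. Its difference of -0.11 (SE 0.29, adjusted p = 0.794) changed sign under 4 of the 5 other scalings or sources of values. Among these, scaling to the median and the authors' value table hold nearly the same values.

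Cxcl14, which acts on monocytes and dendritic cells, stood at 3.64 and 3.87 in A, 2.02 and 2.18 in B and 4.94 and 5.09 in C, against 0.62 and 2.20 in Pu. Its difference was 2.21 (SE 0.41, adjusted p = 0.00551), and 1.43 without Pu1, where it still passed. B overlapped Pu, and A and C lay above it. Ccl19, a ligand of Ccr7 that guides dendritic cells and T cells, stood at 3.44 and 3.73 in A, 3.39 and 3.34 in B and 3.05 and 2.17 in C, against 2.14 and 2.32 in Pu. Its difference of 0.96 (SE 0.29, adjusted p = 0.0392) lost its call without either array of A, B or Pu (adjusted p 0.067 to 0.126), and C2 lay among the Pu arrays. Ccl27a, a skin ligand of Ccr10, stood at 0.68 and 1.12 in A, 0.61 and 0.67 in B and 1.18 and 0.01 in C, against -0.40 and -0.67 in Pu. Its difference of 1.25 (SE 0.35, adjusted p = 0.0282) also lost its call without either array of A, B or Pu (adjusted p 0.051 to 0.102). Both genes lie on chr4 in a stretch with near-identical copies, and Ccl27a overlaps Il11ra1, so that the gene read by these probes is uncertain.

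The 5 inflammatory CC ligands that leukocytes make (Ccl3, Ccl4, Ccl5, Ccl6 and Ccl9) were all lower in the fibroblast types (16.3% of all genes were). Ccl3, Ccl4 and Ccl9 had passed the filter through Pu alone, which fixes their direction, and Ccl5 and Ccl6 had not. Ccl6 had the largest fall of any member in this comparison. It stood at -2.42 and -3.82 in A, -4.22 and -3.09 in B and -2.22 and -2.89 in C, against 6.09 and 5.74 in Pu, with A2 and B1 not above background. Every fibroblast array was far below Pu, a 522-fold difference, or 500.1-fold with the undetected values at the floor (-9.03, SE 0.47, adjusted p = 3.56e-05). Ccl9, a macrophage ligand of Ccr1, stood at -3.38 and -3.78 in A, -4.18 and -4.05 in B and -5.35 and -5.48 in C, against 3.22 and 2.67 in Pu, and was detected on A1 alone among the fibroblast arrays. It was at least 100.4-fold lower (-7.32, SE 0.26, adjusted p = 1.5e-05). Ccl4, which draws monocytes and T cells, was above background on no fibroblast array (-5.85 to -3.94), against 0.05 and 1.37 in Pu, and was at least 24.1-fold lower (difference -5.84, adjusted p = 9.37e-05; -6.50 without Pu1 and -5.18 without Pu2). Ccl3, which draws the same cells, was detected on A2 alone. Ccl5 was detected on every array, at -0.83 to -0.42 in the fibroblast types against 3.36 and 3.88 in Pu, a 19.5-fold difference (SE 0.25 on the log2 scale, adjusted p = 4.63e-05). Myeloid markers moved with these ligands: the summed signal of the 12 was 133 to 224 on fibroblast arrays and 785 and 555 on Pu arrays, but Itgam and Csf1r carried most of it in fibroblasts, and Itgax and H2-Aa were above background on no fibroblast array. Their part in these differences was not tested.

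Pf4, a platelet ligand, stood at -1.92 and -6.05 in A, -5.97 and -6.06 in B and -6.02 and -5.53 in C, against -0.22 and 1.38 in Pu. A1 was its only fibroblast array above background, and it was at least 17.0-fold lower (-5.84, SE 0.99, adjusted p = 0.00394). Pf4 had passed the filter through Pu alone, which fixes its direction, as had Ccl22, Cxcl17 and Xcl1 below. The Pf4 difference ran from -6.64 without Pu1 to -5.04 without Pu2, and was -6.53 without A1 and -5.15 without A2. Of the platelet markers, 2 of 5 tested (Itga2b and Itgb3) were lower (16.3% of all genes were). All 5 were above background on every array, and the summed signal was 6.33 to 8.60 on fibroblast arrays against 9.65 and 12.4 in Pu. Ccl17 and Ccl22, which draw Ccr4-bearing T cells and come largely from dendritic cells, were at least 29.6-fold and at least 4.05-fold lower. Ccl25, a thymus and gut ligand of Ccr9, was lower by little (-0.70, SE 0.23, adjusted p = 0.0493) and lost its call without any array other than C1. Cxcl17, a mucosal ligand, was at least 1.79-fold lower (adjusted p = 0.000267), a call lost under normexp background correction. Cx3cl1, the membrane-bound ligand of Cx3cr1, was 1.91-fold lower (SE 0.21 on the log2 scale, adjusted p = 0.0123), a call not kept under scaling to the median. Xcl1, a ligand made by T and NK cells, had a difference of -1.65 (SE 0.82, adjusted p = 0.158), with A1 its only fibroblast array above background.

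All 15 receptors tested were lower in the fibroblast types (16.3% of all genes were). Their median difference was -3.12 (-2.44 with the 11 that have only a bound placed at it). Of the 15, 9 had passed the filter through Pu alone, so that their direction was fixed, and 6 had not (Ccr8, Ccr9, Ccr10, Cxcr4, Cxcr6 and Cx3cr1). The calls of Ccr1, Ccr3, Ccr8, Ccr10, Cxcr3 and Cxcr5 were lost under normexp background correction, and those of Ccr8, Ccr10 and Cxcr6 under scaling to the median. Cxcr4, the receptor of Cxcl12 on leukocytes and endothelium, was detected on every array. It stood at -1.87 and -2.09 in A, -1.62 and -2.12 in B and 0.29 and -0.49 in C, against 4.81 and 4.09 in Pu, a 54.3-fold difference (-5.76, SE 0.33, adjusted p = 4.4e-05). Both C arrays lay above the A and B arrays, yet the differences between types did not pass the test (A minus C -1.88, adjusted p = 0.116; B minus C -1.77, adjusted p = 0.082).

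Cxcr2, the neutrophil receptor for the ELR ligands, stood at -5.86 and -5.81 in A, -5.81 and -3.42 in B and -4.58 and -3.41 in C, against 2.19 and 0.89 in Pu. It was above background on B2 alone among fibroblast arrays and at least 39.0-fold lower (-6.36, SE 0.68, adjusted p = 0.0005), with the difference -5.71 without Pu1 and -7.01 without Pu2. Of 6 neutrophil markers, 4 (S100a8, S100a9, Retnlg and Mmp8) were also lower in the fibroblast types, where 16.3% of all genes were. S100a8 and S100a9 were above background on C1 alone among fibroblast arrays. Ccr2, the monocyte receptor of Ccl2 and Ccl7, lay between -6.31 and -5.47 on the fibroblast arrays, none above background, against 0.26 and 0.16 in Pu. It was at least 17.1-fold lower (adjusted p = 1.57e-05). Its ligands Ccl2 and Ccl7 were among the 8 genes that were higher. Ccr7, the receptor of Ccl19 on dendritic cells and T cells, stood at -3.93 and -5.98 in A, -5.46 and -4.63 in B and -5.89 and -5.43 in C, against -0.55 and 1.08 in Pu, with A1 alone above background. It was at least 17.2-fold lower (-5.48, SE 0.64, adjusted p = 0.000773), with the difference -6.30 without Pu1 and -4.67 without Pu2.

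The other receptors that were above background on no fibroblast array were Ccr1, Ccr3, Ccr6, Cxcr3 and Cxcr5, found on monocytes, eosinophils, lymphocytes and B cells, each at least 2.03-fold to at least 11.0-fold lower. Ccr3 and Cxcr5 lost their calls without Pu1 (adjusted p 0.072 and 0.058). T and NK cell markers summed to 5.65 to 6.96 on fibroblast arrays and 35.2 and 74.0 on Pu arrays, and B cell markers to 0.375 to 0.512 against 6.44 and 6.52, with Cd3g and Ms4a1 above background on no fibroblast array. Among receptors detected on 4 or more fibroblast arrays, Ccr9 was at least 3.49-fold and Ccr10 at least 1.38-fold lower, neither being above background in C, and Ccr8 was 1.75-fold lower; the Ccr10 ranges overlapped. Ccr8 and Ccr10 lost their calls without either array of A or B, without C1 or without Pu1, and Ccr9 without either Pu array. Cxcr6, a T and NK cell receptor of Cxcl16 that overlaps Fyco1 in the annotation, had -1.06 and -1.66 in A, -1.23 and -2.24 in B and -1.04 and -4.24 in C, against 0.76 and 0.28 in Pu; its call (adjusted p = 0.0455) was lost without any array of A, B or Pu.

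**Figure D3:**
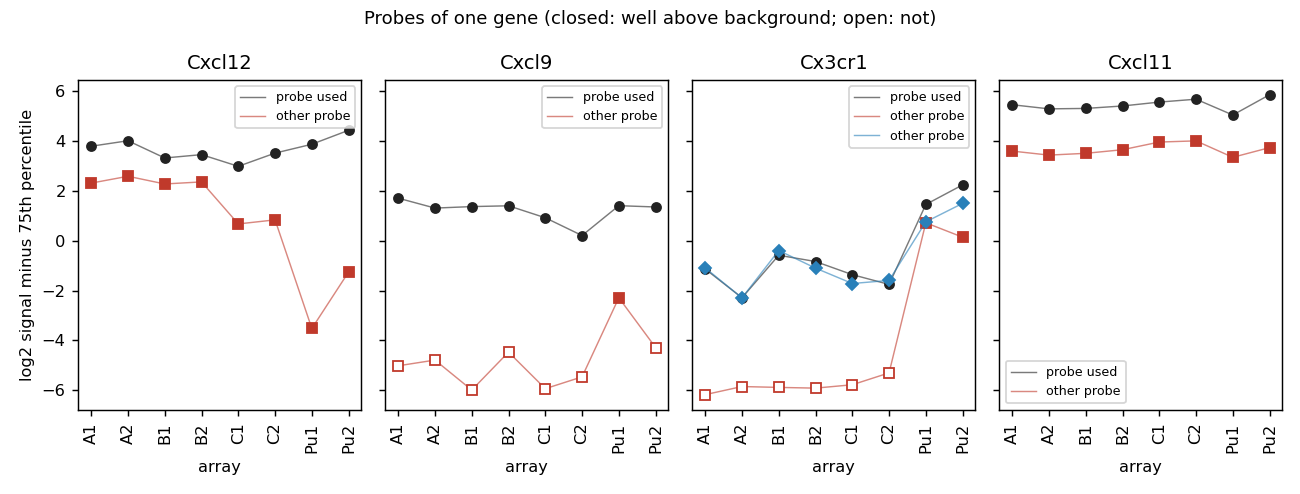
Log2 signal minus the 75th percentile on each array (fibroblast types, then Pu) for every probe of Cxcl12, Cxcl9, Cx3cr1 and Cxcl11; black circles are the probe used, other colours the remaining probes, and open symbols values not well above background. The 2 Cxcl12 probes differ in direction between fibroblasts and Pu.

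Of the member genes 12 had several probes, and for some the probes gave different answers. With every kept probe tested on its own, 27.1% of 37857 probes passed in this comparison, in either direction. The probes of Cxcl12, the ligand of Cxcr4 that holds stem cells and lymphocytes in their niches, gave different directions. Its transcripts differ at their 3' ends, and its probes start 6201 bases apart (mm9, chr6:117125026-117125085 and chr6:117131227-117131286), with these first 30 bases.
Cxcl12 upstream probe: gctgtaaacctcctaccgtatgtgggaatt
Cxcl12 downstream probe: aggagaaggcagcttcctatatgcagcgtg

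The downstream probe, which stood for the gene, gave 3.79 and 4.01 in A, 3.32 and 3.45 in B and 2.99 and 3.52 in C, against 3.87 and 4.43 in Pu. Its difference of -0.64 (SE 0.27, adjusted p = 0.106) did not pass the test, though it did pass, as lower, under 2 of the other scalings. The upstream probe gave 2.31 and 2.59 in A, 2.28 and 2.36 in B and 0.67 and 0.84 in C, against -3.52 and -1.25 in Pu. There every fibroblast array lay above both Pu arrays, by 4.23 (SE 0.54, adjusted p = 0.00176 over all kept probes). Which transcript each probe reads was not tested, so no direction is given for the gene.

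Cxcl9, Cxcl10 and Cxcl11 are interferon-induced ligands of Cxcr3, and with the probe used none of the 3 passed the test between fibroblasts and Pu. The used Cxcl9 probe lay between 0.21 and 1.71 in the fibroblast types and at 1.41 and 1.35 in Pu, but the other Cxcl9 probe was above background on Pu1 alone. The used Cxcl10 probe had a difference of 0.87 (SE 0.31, adjusted p = 0.0641) and its second probe 1.99 (SE 0.36, adjusted p = 0.00762 over all kept probes). The used probe passed, as higher, under 4 of the 5 other scalings or sources of values, of which scaling to the median and the authors' value table are nearly the same. Both Cxcl11 probes were bright and flat, the used probe at 5.29 to 5.68 in the fibroblast types and 5.04 and 5.86 in Pu. Of 32851 RefSeq promoters, 55 shared some 16-base run with the used probe and 10 with the other Cxcl11 probe. The shared run need not be the same in each promoter. No probe of another member shared a run with more than 3. The first 30 bases of the used probe follow, and whether they hold the shared runs was not tested.
Cxcl11: agaccaggagtttcaggacagccagggcta

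Whether this probe reads other transcripts was not tested, and Cxcl10 and Cxcl11 overlap Art3 in the annotation. Cx3cr1, the fractalkine receptor of monocytes and macrophages, was lower with all 3 of its probes, by -6.25 with a probe above background on no fibroblast array and by -3.17 and -2.49 with 2 probes that overlap each other near the 3' end. The used probe stood at -1.13 and -2.29 in A, -0.58 and -0.83 in B and -1.36 and -1.75 in C, against 1.46 and 2.24 in Pu. Ccl19 was higher in the fibroblast types by 0.96, 1.42 and 2.79 with its 3 probes, and Ccl27a by 1.25, 1.35 and 0.75. In the fit of single probes the Ccl19 probe at 0.96 (adjusted p = 0.0542) and the Ccl27a probe at 0.75 (adjusted p = 0.214) did not pass. Nor did the used probes of Ccl25 (adjusted p = 0.0706), Ccr8 (adjusted p = 0.0637) and Cxcr6 (adjusted p = 0.0573) there, though the other Cxcr6 probe did (adjusted p = 0.0287). Cxcl13, a B cell attractant, and Cxcl16, the ligand of Cxcr6, had differences of -0.13 (SE 0.78, adjusted p = 0.909) and -0.02 (SE 0.22, adjusted p = 0.953) and changed sign under other scalings.

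Against Pu the 3 types gave similar counts, each beside the share of all genes called in the same comparison. A had 7 higher and 24 lower members (67.4% called, 27.1% of all genes), B had 5 higher and 25 lower (65.2%, 29.5% of all genes) and C had 4 higher and 27 lower (67.4%, 28.8% of all genes). These comparisons share the Pu arrays. Cxcl1, Ccl11 and Ccl7 were higher than Pu in each type. For Cxcl1 the difference was 4.75 with A, 5.07 with B and 4.15 with C. For Ccl7 it was 2.60 with A, 3.54 with B and 2.12 with C, and for Ccl11 it was 5.66, 6.27 and 2.91. Cxcl14 was higher in A (2.35, adjusted p = 0.0134) and C (3.61, adjusted p = 0.00229), and its difference in B was 0.69 (adjusted p = 0.335). The Cxcl14 call in A was lost without A1 or A2 (adjusted p 0.063 and 0.091). Without Pu1 the differences were 1.56 in A and 2.82 in C, and without Pu2 3.13 and 4.40, all past the test. Cxcl5 passed the test in C alone, as lower (-2.54, SE 0.64, adjusted p = 0.0245), with -1.20 and -0.22 in A, -0.98 and -0.43 in B and -4.28 and -2.47 in C, against -1.10 and -0.58 in Pu; A minus C was 2.66 (adjusted p = 0.145) and B minus C 2.67 (adjusted p = 0.0912), neither past the test. The C minus Pu call of Cxcl5 was lost without Pu1, Pu2 or C1 (adjusted p 0.054 to 0.085; -1.63 without C1, and -3.44 without C2, where it passed) and under normexp background correction.

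The second set of comparisons asked whether the fibroblast types differ from each other in chemokine genes. Between A and B no member passed the test in limma, and 0 of all genes did (0%); 3 members and 560 of all genes had an unadjusted p under 0.05. Between A and C, 1 member passed (2.17%), against 0.411% of all genes. Between B and C, 4 members passed (8.70%), against 2.44% of all genes. The median difference of the members was 0.00 for A minus B, 0.14 for A minus C and 0.09 for B minus C, and -0.01, 0.06 and 0.06 over all genes.

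**Figure D4:**
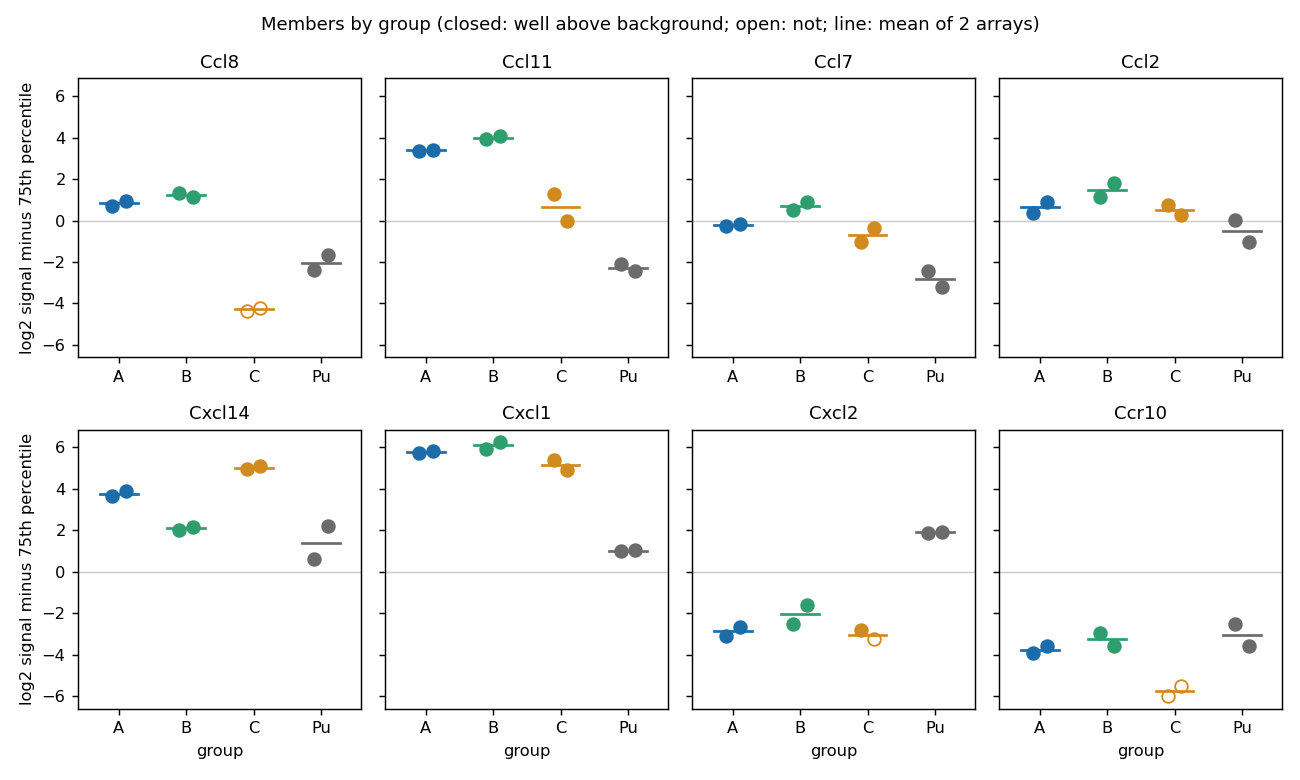
Log2 signal minus the 75th percentile for 8 member genes, by group (A, B, C, then Pu), with a point per array and a line at the mean of 2; open points are not well above background. Ccl8 is at about 1 in A and B and below background in C, and Cxcl14 is highest in C.

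Ccl8 separated C from the other types. It stood at 0.71 and 0.93 in A and 1.35 and 1.14 in B, against -4.34 and -4.22 in C, where neither array was above background; Pu had -2.39 and -1.66. A was at least 20.9-fold higher than C (difference 5.10, SE 0.33, adjusted p = 0.0182) and B at least 28.0-fold higher (5.52, SE 0.33, adjusted p = 0.00279). Against Pu, A was higher by 2.85 and B by 3.27, while C was at least 2.91-fold lower (adjusted p = 0.0029), a call lost under normexp background correction. The A minus C call was lost without either array of A or B or without C2 (adjusted p 0.058 to 0.257), and the B minus C call without B1 (adjusted p = 0.059), with the differences between 4.99 and 5.42 in those fits.

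Ccl11 followed the same order as Ccl8, with C lowest of the types, but was detected in all of them. B exceeded C by 3.37 (SE 0.44, adjusted p = 0.013, 10.3-fold), and without C1 and C2 in turn by 4.01 and 2.72. That call was lost without either B array (adjusted p 0.117 and 0.126). A minus C was 2.75 (adjusted p = 0.0592) and did not pass.

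Cxcl14 ran the other way: B was lower than C by a difference of -2.92 (SE 0.50, adjusted p = 0.0329, 7.56-fold), with 2.02 and 2.18 in B against 4.94 and 5.09 in C. A lay between them at 3.64 and 3.87, and neither A minus B (1.66, adjusted p = 0.897) nor A minus C (-1.26, adjusted p = 0.348) passed. The B minus C call was lost without any single array of A, B or C (adjusted p 0.059 to 0.234). Ccr10, a receptor of Ccl27a and Ccl28, stood at -3.90 and -3.59 in A and -2.93 and -3.56 in B, against -5.99 and -5.51 in C, where it was not above background. B was at least 1.25-fold higher than C (difference 2.50, SE 0.44, adjusted p = 0.0362), a bound far below the fitted difference. With the undetected values raised to the floor, or without any array other than Pu, the Ccr10 call was lost, and the gene overlaps Cntnap1 in the annotation.

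Markers of other cells and of fibroblasts differed between the types as well. Sftpc, the alveolar type 2 surfactant gene, was -0.48 and -0.13 in A and -1.82 and -0.93 in B, against 3.14 and 1.27 in C, with B lower than C by a difference of -3.58 (adjusted p = 0.0337) and A minus C not past the test (adjusted p = 0.152). The summed alveolar type 2 signal was 6.57 and 6.16 in A and 6.75 and 9.67 in B, against 16.6 and 9.63 in C. The summed myeloid signal was 138 and 133 in A and 144 and 149 in B, against 204 and 224 in C. As said above, Itgam and Csf1r carried most of the myeloid sum in fibroblasts. Of the 12 myeloid genes, 0 were called in A minus C or in B minus C. Array B2 overlapped C in the alveolar type 2 sum, and no A or B array did in the myeloid sum. The summed blood endothelial signal was 5.48 and 5.62 in A and 7.78 and 6.96 in B, against 4.55 and 4.55 in C, and Tek was higher in B than in C (3.57, adjusted p = 0.00681). Ly6g was the 1 of 6 neutrophil genes called between types. It was higher in A (4.17, adjusted p = 0.0346) and in B (4.82, adjusted p = 0.00581) than in C. The median difference of the 6 ran the other way, at -1.29 for A minus C and -0.93 for B minus C. Their summed signal was 157 and 138 in A and 140 and 149 in B, against 161 and 175 in C. Reln, lower in B than in C, was above background on no fibroblast array. The summed fibroblast signal was 1137 and 1251 in A and 1266 and 1130 in B, against 634 and 642 in C, and Dcn was higher in B than in C (2.37, adjusted p = 0.0406). The part of these cells in the differences between types was not tested.

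**Figure D5:**
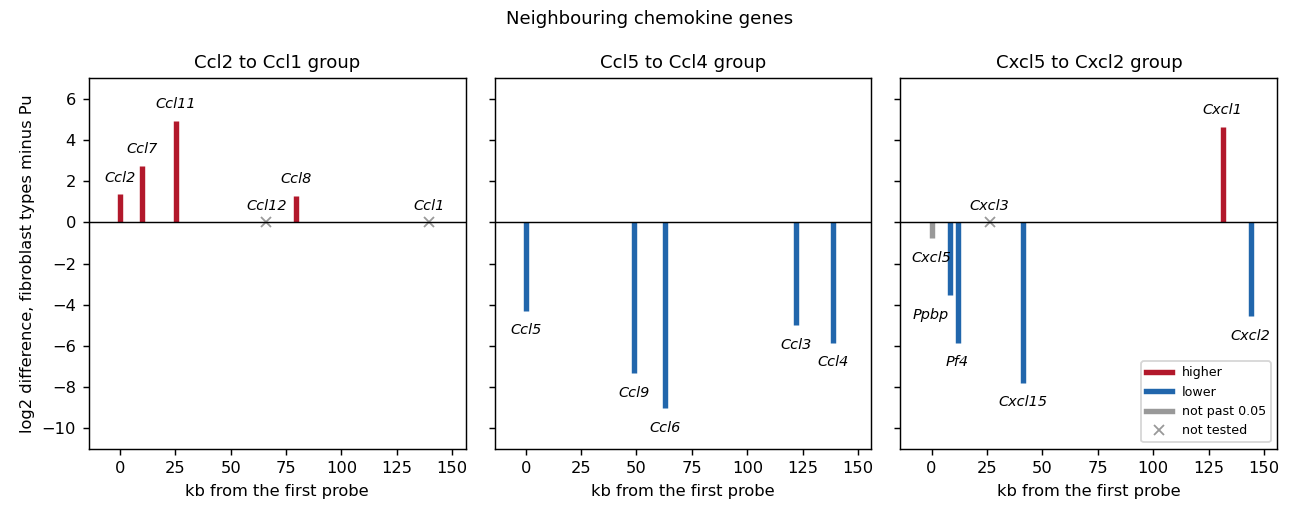
Log2 difference of the mean of the fibroblast types minus Pu for genes of 3 chromosomal groups, against the distance in kb from the first probe of the group. Crosses are genes not tested. Ccl8, higher in this mean, was lower than Pu in C. The Ccl2 to Ccl1 group holds 4 higher genes, the Ccl5 to Ccl4 group 5 lower genes, and in the Cxcl5 to Cxcl2 group Cxcl1 alone is higher. Of all genes tested, 20.8% were higher and 16.3% lower.

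Many members lie side by side in the genome, and genes whose probes lay under 200 kb apart were read as groups (mm9). Each count below stands beside 20.8% higher and 16.3% lower of all genes tested. The group on chr11 between 81850650 and 81990510 holds Ccl2, Ccl7, Ccl11, Ccl12, Ccl8 and Ccl1. Its 4 tested genes were higher in the mean of the fibroblast types. Type by type against Pu, Ccl7 and Ccl11 were higher in each. Ccl8 was higher in A and B and lower in C, and Ccl2 passed in B alone. The next group on the same chromosome, between 83339296 and 83478111, holds Ccl5, Ccl9, Ccl6, Ccl3 and Ccl4, and all 5 were lower, 3 of them (Ccl3, Ccl4 and Ccl9) with the direction fixed by the filter. In the group on chr5 between 91190490 and 91334593, Cxcl1 was higher and Ppbp, Pf4, Cxcl15 and Cxcl2 were lower, of which Cxcl2 alone had not passed the filter through Pu alone. Ccl3 and Ccl4 overlap in the annotation.

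Other genes through which chemokines work were read from lists chosen by known role; each count against Pu stands beside 20.8% higher and 16.3% lower of all genes tested. Of the 4 atypical receptors listed (Ackr1, Ackr2, Ackr4 and Ccrl2), 1 was higher in the fibroblast types and 3 were lower. Ackr1, which carries chemokines on venules and red cells, was higher by 2.10 (SE 0.65, adjusted p = 0.0417), though C2 and Pu1 were not above background. Ackr2, a scavenger of inflammatory CC ligands, stood at -0.65 and -1.001 in A, 1.92 and 1.98 in B and -2.998 and -4.001 in C, against 0.96 and 2.09 in Pu. B exceeded C by 5.45 (adjusted p = 0.00446) and B minus Pu was 0.43 (adjusted p = 0.537), while the mean of the types was below Pu by a difference of -2.32 (adjusted p = 0.00402). Ackr4, a scavenger of Ccl19 and Ccl25, was also higher in B than in C (2.82, adjusted p = 0.0305), with neither C array above background.

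Of the 4 genes of the chemerin system, a leukocyte attractant outside the chemokine family, 2 were higher and Ccrl2 was lower. Rarres2 (chemerin itself) was higher by 2.49 (SE 0.28, adjusted p = 0.000682) and its receptor Cmklr1 by 2.01 (SE 0.30, adjusted p = 0.00225). Of 12 genes that make or trim heparan sulfate, the chain on which chemokine gradients are held, Sulf1 (3.19, SE 0.30, adjusted p = 0.000309) and Glce were higher, Hs6st2 was lower and 9 did not pass. Sulf2, the related sulfatase, was higher in B than in C by 2.85 (adjusted p = 0.0191). Of 5 proteases that cut chemokines, Mmp2 (3.94, SE 0.25, adjusted p = 6e-05) and Adam17 were higher and Dpp4 and Mmp9 lower. Dpp4, which trims Cxcl12, Ccl11 and other ligands, stood at -1.56 and -1.65 in A, 1.43 and 1.49 in B and -3.30 and -5.42 in C, against 2.30 and 1.22 in Pu. B exceeded C by 5.82 (adjusted p = 0.00874), with C2 not above background.

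Of 13 tested genes for receptors that induce chemokines, a list that includes the adaptor Myd88, 4 were higher in the fibroblast types and 1 was lower. Il1r1, the interleukin 1 receptor, was higher by 3.25 (SE 0.51, adjusted p = 0.00273), and Il6st, Ifngr1 and Il17rc by 1.51, 1.25 and 1.18, while Tnfrsf1b was lower. Of 16 NF-kB factors and feedback genes, Bcl3 was higher (1.37, adjusted p = 0.0152), Rel was lower (-2.80, adjusted p = 0.00694) and 14 did not pass. Of 9 genes that act below chemokine receptors, 1 was higher and 4 were lower, among them Rgs1, a brake on receptor signalling in lymphocytes, which was above background on no fibroblast array. Rgs2, a brake of the same family, stood at 3.28 and 3.35 in A, 1.04 and 1.60 in B and 6.15 and 6.41 in C, against 5.01 and 4.55 in Pu. It was lower in A than in C by a difference of -2.97 (adjusted p = 0.0309) and lower in B than in C by -4.96 (adjusted p = 0.00279).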

How the data were processed

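Signals of 8 Agilent 1-colour arrays (mouse, 62976 spots) were analysed. Per the file headers and the submitters' processing notes, the authors made background-corrected spot intensity values with Feature Extraction 10.10.1.1; a deposited table also holds their log2 values, which equal log2 signals centred on each array's median within 0.02 for at least 99.7% of probes on each array. From the deposited intensity, log2 of the processed signal minus the array's 75th percentile was computed, control and outlier spots were left out (28 probes lost all their spots), and spots of a probe were averaged. Flags for background and saturation were read per the file headers; 0 probes were saturated. limma 3.58.1 (R 4.3.3) fitted 4 group means to 17264 genes in 1 model with eBayes, and 7 contrasts were adjusted by Benjamini-Hochberg within each, called under 0.05. The fit was tested on simulated data. The number of arrays limits the precision.

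Per-array values were given for members called between types and for the 10 highest and 10 lowest called between fibroblasts and Pu. The members and lists were chosen with earlier results of these data known. Symbols come from the array, matched to the RefSeq gene table through accessions; promoters are from RefSeq (GRCm38.p6) and probe positions are the array's (mm9). Ccl21a, Ccl21b, Ccl21c and Ccl27b were not analysed here, as no member probe carried those names. Of the genes counted, 1 member and 1 marker are not reported here.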

Additional observations from a re-analysis of the deposited data

Results flagged for a closer look

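Ccl8 differed in opposite directions from Pu in different fibroblast types. A minus Pu was 2.85 (adjusted p = 0.00106) and C minus Pu was -2.25 (adjusted p = 0.0029), and the difference between these effects, tested as A minus C in the same fit, was 5.10 (adjusted p = 0.0182). B minus Pu was 3.27 (adjusted p = 0.000576), and its difference from C minus Pu was 5.52 (adjusted p = 0.00279). The gene was above background on both arrays of A, B and Pu and on neither of C, so that the C values are upper limits. The C minus Pu call was lost under normexp background correction, so the lower level in C than in Pu depends on how background is treated.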

How the results depend on the processing

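Among 23 differences named by the rule, 13 kept their direction and call under every alternative run, 10 lost the call under some, and 0 reversed. The 10 were Ccl19, Ccl2, Ccl27a, Ccl8 and Pf4 between fibroblasts and Pu, Ccl8 between A and C, and Ccl8, Ccl11, Ccr10 and Cxcl14 between B and C; Ccr10 ranged from 0.11 to 2.88 and lost its call under 13 of 23 alternatives. The count of members called between fibroblasts and Pu was 37; it was 20 under the stricter filter on dim probes, which tests fewer genes, and 22 with array weights. The stricter filter gave 14 for A, 14 for B and 15 for C against Pu, where the counts were 31, 30 and 31. Between A and B array weights gave 2 in place of 0. Between A and C the count of 1 became 2 with normexp, the stricter filter, the floor, the trended robust variance or the 6 fibroblast arrays alone (the last chosen after seeing the data), 3 with array weights and 0 with only the groups compared. Between B and C the count of 4 became 2 with no filter or only the groups compared. The causes of these moves were not tested beyond the number of genes or arrays. Without each replicate in turn the counts were 28 to 37 for fibroblasts, 23 to 33 for A, 26 to 32 for B and 29 to 31 for C against Pu, 0 to 0 for A minus B, 0 to 3 for A minus C and 0 to 5 for B minus C. With a replicate block the counts were 33, 29, 28, 31, 0, 0 and 4 in that order. Same-numbered samples did not deviate together across genes (r between -0.08 and 0.06). With 2 samples a group, that cannot show whether same-numbered samples came from a shared preparation. A slide or scan block could not be run, as no slide held both fibroblasts and Pu. With 2 arrays a group, a difference that missed the threshold is not shown to be absent, and a gene below background has only an upper limit.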
